A study of Rattus norvegicus with 24 samples.

Results

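Genes that mark the perivascular macrophages of the brain were followed through 24 messenger RNA libraries of the injured and the sham-operated rat brain. There were 7 such genes, Mrc1, Cd163, Lyve1, Stab1, F13a1, Pf4 and Msr1, chosen by name among 26641 named loci of the 42334 that the table lists, and each name had exactly 1 locus. Adult male Sprague-Dawley rats received a lateral fluid-percussion injury, a pressure pulse on the intact dura through a craniectomy over the left parietal lobe (TBI, n = 6), or anaesthesia and the same surgery without the impact (sham-operated controls, n = 6). Perilesional cortex and ipsilateral thalamus were dissected 3 months later from every rat, so the 4 groups of 6 libraries are TBI cortex, sham cortex, TBI thalamus and sham thalamus, and the same rats stand in both regions. All rats, controls included, carried the craniectomy, and the TBI rats were selected for a prominent MRI signal around the lesion, so they represent injured rats with lasting perilesional inflammation and not all injured rats. The brains were rinsed with cold saline from outside after decapitation and were not perfused through the vessels, so blood in the vessels was part of the tissue.

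Perivascular macrophages lie between the vessel wall and the glia limitans, and close relatives fill the meninges and the choroid plexus. They take up debris, lipoproteins and blood products that reach the perivascular space, and they are told from microglia by endocytic receptors that microglia carry little of. None of the 7 genes is exclusive to these cells: Lyve1 also marks lymphatic endothelium, Stab1 sinusoidal endothelium, Pf4 platelets, F13a1 platelets and monocytes, and Msr1 many lipid-laden macrophages.

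The loci were listed by the files on chromosome 17 from 83099573 to 83180577 for Mrc1, on chromosome 4 from 223769350 to 223802725 for Cd163, on chromosome 16 from 7141050 to 7179494 for Stab1 and on chromosome 16 from 56517028 to 56597077 for Msr1. Lyve1 was listed on chromosome 1 from 182650924 to 182664312, F13a1 on chromosome 17 from 30406395 to 30581500 and Pf4 on chromosome 14 from 18758190 to 18758900. The labels name Rnor_5.0 for these positions and the methods name RGSC3.4 as the genome. No locus of the 7 was joined with another gene.

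Upstream sequence is shown for Mrc1, Stab1 and F13a1, which rose together in the injured cortex and differed between the regions. RefSeq sequence of the build GRCr8 was at hand for 5 of the 7 genes, and each run below gives the 250 bases before the gene's start, 5′ to 3′ on the strand of the gene, at chr17:82157475-82157724 on the plus strand for Mrc1, chr16:6367360-6367609 on the minus strand for Stab1 and chr17:28020947-28021196 on the plus strand for F13a1. Capitals mark GAGGAA, the core bound by PU.1, the macrophage-determining ETS factor, or its reverse complement TTCCTC.
Mrc1: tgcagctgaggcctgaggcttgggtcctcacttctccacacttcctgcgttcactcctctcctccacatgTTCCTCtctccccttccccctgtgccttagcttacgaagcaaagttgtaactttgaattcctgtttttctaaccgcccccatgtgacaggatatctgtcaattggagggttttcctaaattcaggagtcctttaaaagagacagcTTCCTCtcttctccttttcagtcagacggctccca
Stab1: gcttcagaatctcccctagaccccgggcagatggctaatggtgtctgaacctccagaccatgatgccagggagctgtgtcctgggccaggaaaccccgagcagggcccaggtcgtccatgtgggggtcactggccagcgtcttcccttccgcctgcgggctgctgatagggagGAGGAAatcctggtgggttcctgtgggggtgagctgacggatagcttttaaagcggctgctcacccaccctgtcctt
F13a1: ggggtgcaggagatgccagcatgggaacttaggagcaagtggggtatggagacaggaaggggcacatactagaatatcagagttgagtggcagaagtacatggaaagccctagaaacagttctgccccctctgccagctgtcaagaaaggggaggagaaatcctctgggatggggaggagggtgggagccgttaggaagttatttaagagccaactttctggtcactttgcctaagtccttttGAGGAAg
The core occurred in 3 of the 5 sequences, against 23.3% of the 33469 promoter windows of the same length. Mrc1 held 2 matches on the opposite strand, whose first bases lay 180 and 35 bases before the start, Stab1 held 1 match 77 bases before the start and F13a1 held 1 match 7 bases before it. A MAF half-site, TGCTGA searched on both strands, was found in Stab1 alone of the 5, without a shared base with GAGGAA, and in 15.1% of all windows. The TATA box letters TATAAA were found in 0 of the 5 and in 12.9% of all windows. A match of letters is a description of the window and not a binding site.

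Values are normalized counts, that is, the sequenced fragments of a locus after scaling by the size factor of the library. The libraries held 30568927 to 54608921 fragments. The identity genes followed the region labels: 7 of 7 cortical markers were lower and 8 of 8 thalamic markers higher in sham thalamus than in sham cortex. Libraries of rat 45 stood apart. In its thalamus the summed normalized count of 10 fibroblast markers was 50349, against 3317 to 3990 in the other 5 TBI thalami, and that of 9 choroid plexus markers was 266903, against 938 to 2165. In its cortex the sums were 55015 and 32827, against 21557 to 38846 and 969 to 1217 in the other 5. Among sham thalami, rats 34 and 50 had fibroblast sums of 11529 and 7667 and choroid plexus sums of 70076 and 110539, against fibroblast sums of 2594 to 2796 and choroid plexus sums of 733 to 1422 in the other 4, and sham cortex of rats 26 and 34 had choroid plexus sums of 24059 and 11438. The results on TBI for the 7 genes are therefore given with and without rat 45. The fits without rat 45 kept all sham libraries, including the thalami of rats 34 and 50. Both of those sham thalami had higher sums than each of the other 5 TBI thalami.

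Within each region limma compared TBI with sham rats on the scale log2(normalized count + 1), with Benjamini-Hochberg adjustment over all named loci with a mean of at least 10, and a gene was called changed at an adjusted p under 0.05. In the perilesional cortex Stab1, Pf4, Msr1, Mrc1 and F13a1 rose, by 0.63 to 1.70 on the log2 scale, and Cd163 and Lyve1 did not pass the test. These were 5 of 7 members, where 14.3% of all loci tested were called higher. Stab1 and Pf4 were higher in every TBI cortex than in every sham cortex, 2 of 7 members against 7.02% of loci. The median log2 fold change of the 7 genes was 0.67, and that of all loci tested was -0.0096. Msr1 reached the mean of 10 only through its TBI libraries, so its place in the count was in part set by the filter, while the other 6 exceeded it in both groups. In bulk tissue a larger number of these cells and more RNA per cell cannot be told apart.

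**Figure D1:**
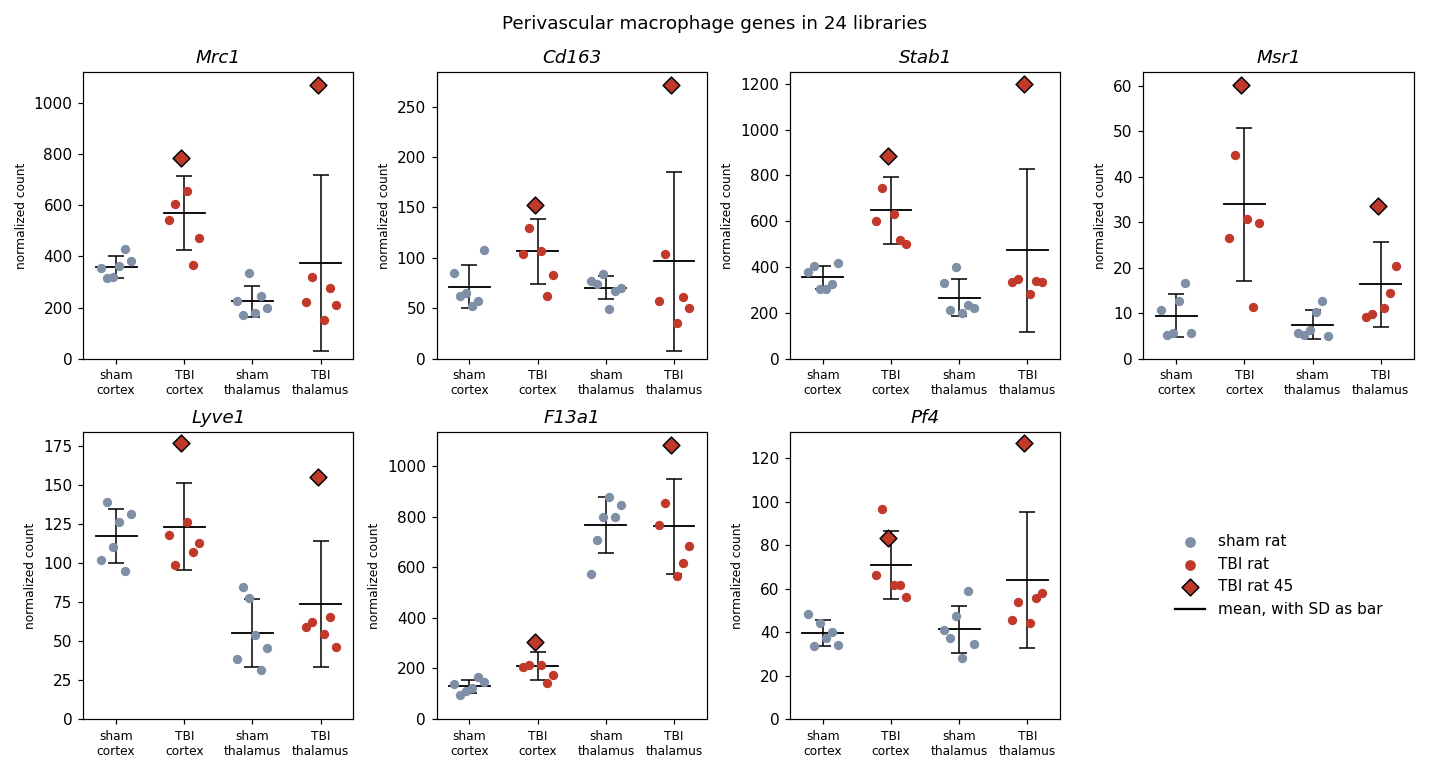
Normalized count of each of the 7 genes (vertical axes, one panel per gene, each starting at 0) in sham (grey) and TBI (red) rats, cortex and thalamus, 1 point per library, 6 per group. Horizontal lines are means, vertical bars SD, and black-edged diamonds the 2 libraries of rat 45, which was the highest TBI thalamus for 7 of 7 genes and the highest TBI cortex for 6 of 7.

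Of the 7 genes, Mrc1, Stab1, Msr1, Cd163 and Lyve1 encode scavenger or endocytic receptors. Mrc1, the mannose receptor that clears mannosylated glycoproteins and collagen fragments, had 316, 358 and 430.1 normalized counts as the lowest, median and highest value in sham cortex, and 367, 572 and 784 in TBI cortex. The groups overlapped in 1 library, since 5 of the 6 TBI values exceeded every sham value and rat 56 did not. The means were 360.4 ± 42.8 and 570.3 ± 145 (SD, n = 6 each), and the log2 fold change was 0.63 (SE 0.15, limma, Benjamini-Hochberg adjusted p = 0.00529). Mrc1 passed the test in 23 of the 24 settings of the analysis and was lost when all 24 libraries shared 1 estimate of the spread (adjusted p = 0.114 in limma).

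Stab1 encodes stabilin-1, which internalises the matrix protein SPARC and modified lipoproteins. Its values ran from 303 through a median of 353 to 417 in sham cortex and from 502 through 617 to 886 in TBI cortex. No value of one group reached the other, and the gap from 417 to 502 was bridged by no rat. The mean rose from 356 ± 50.8 to 648 ± 145 (SD, n = 6 each), a log2 fold change of 0.85 (SE 0.13, limma adjusted p = 0.000363).

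Msr1, the class A scavenger receptor for acetylated lipoproteins, was low throughout. In sham cortex it ran from 5.15 through 8.22 to 16.8 and in TBI cortex from 11.4 through 30.3 to 60.3, which was 5 to 15 fragments and 12 to 71 fragments per library. Again 5 of 6 TBI cortices stood above every sham cortex and that of rat 56 fell among them. The mean went from 9.46 ± 4.76 to 33.97 ± 16.8 (SD, n = 6 each), and the log2 fold change of 1.70 (SE 0.37, limma adjusted p = 0.00356) was the widest of the 7 and the least precise.

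Cd163, the receptor that removes complexes of haemoglobin and haptoglobin, took values from 52.2 through 63.9 to 108 in sham cortex and from 62.6 through 106 to 152 in TBI cortex. Most of the TBI range lay inside or near the sham range, and 2 of 6 TBI values exceeded every sham value. With means of 71.6 ± 21.0 and 106 ± 31.9 (SD, n = 6 each), the log2 fold change of 0.55 (SE 0.21) had an adjusted p of 0.0638 in limma, so a difference was not established at this spread. It passed in 4 of 24 settings, among them DESeq2 on the recovered fragments (log2 fold change 0.59, adjusted p = 0.0299).

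Lyve1, a receptor for hyaluronan, had sham cortex values from 94.95 through 118 to 139 and TBI cortex values from 98.97 through 116 to 177. All but 1 of the 6 TBI values lay within the sham range and the one above it came from rat 45. The log2 fold change was 0.058 (SE 0.14, limma adjusted p = 0.790), with a 95% confidence interval from -0.24 to 0.36, so changes as large as those of Mrc1, Stab1, F13a1 and Pf4 lay outside the interval. Without rat 45 the value was -0.050.

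Of the secreted products, Pf4 encodes the chemokine CXCL4, stored by platelets and made by border macrophages. Its values were 33.4 to 48.4 with a median of 38.7 in sham cortex and 55.95 to 96.5 with a median of 63.9 in TBI cortex, so all TBI cortices were above all sham cortices. Means of 39.6 ± 5.93 and 70.9 ± 15.6 (SD, n = 6 each) gave a log2 fold change of 0.81 (SE 0.16, limma adjusted p = 0.00159). Pf4 was the one gene whose highest TBI cortex was not that of rat 45 but of rat 24.

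F13a1 encodes the A subunit of coagulation factor XIII, the transglutaminase that cross-links fibrin. It ranged from 96.1 through 129.9 to 166 in sham cortex and from 143 through 210.1 to 303 in TBI cortex. The TBI value of rat 56 fell within the sham range and the other 5 stood above it. The mean rose from 130.2 ± 25.4 to 209 ± 53.8 (SD, n = 6 each), with a log2 fold change of 0.67 (SE 0.17, limma adjusted p = 0.00763).

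The cortical calls did not rest on rat 45. Without it the same 5 genes were called by limma, with log2 fold changes of 0.53 for Mrc1 (adjusted p = 0.0104), 0.75 for Stab1 (adjusted p = 0.000504), 1.51 for Msr1 (adjusted p = 0.00900), 0.55 for F13a1 (adjusted p = 0.0151) and 0.76 for Pf4 (adjusted p = 0.00448). In the fit without rat 45, 1832 of all 15470 loci were called higher. Rat 56 had the lowest TBI cortex for 4 of 7 genes, and its fibroblast sum of 21557 was also the lowest of the TBI cortices.

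In the ipsilateral thalamus 1 of the 7 genes passed, Msr1, where 14.5% of all loci tested were called higher. No member was free of overlap between TBI and sham thalamus, 0 of 7 against 7.46% of loci, and the median log2 fold change of the 7 was 0.43, that of all loci -0.023. Without rat 45 limma called 0 of 7, with Msr1 the 1 gene at an unadjusted p under 0.05, and the median was 0.13. In that fit 2034 of all 15536 loci were called higher. The sham thalami of rats 34 and 50, with their high fibroblast and choroid plexus sums, remained in it. At an unadjusted p under 0.05 Stab1 and Pf4 stood beside Msr1 with all libraries.

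Mrc1 ran from 171 through 211 to 336 normalized counts in sham thalamus and from 153 through 251 to 1069 in TBI thalamus. The TBI values enclosed the sham values on both sides, and the highest came from rat 45, the next being 318. Means of 225 ± 61.0 and 375 ± 345 (SD, n = 6 each) gave a log2 fold change of 0.43 (SE 0.36, limma adjusted p = 0.378), which became 0.064 without rat 45.

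Stab1 behaved likewise at the top and differently below it. Sham thalamus ran from 198 through 229 to 401 and TBI thalamus from 285 through 339 to 1198, and without rat 45 the TBI values were confined to 285 to 347. Of the sham values, 4 lay below every TBI value and 2, the highest of them that of rat 34, lay among or above the TBI values. The log2 fold change was 0.65 (SE 0.30, limma adjusted p = 0.107) with all rats and 0.34 (adjusted p = 0.124) without rat 45. With both rats 45 and 34 left out, a choice made after the values were seen, it was 0.47 and passed (limma adjusted p = 0.0128).

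Msr1 went from a sham range of 4.95 through 5.99 to 12.6 to a TBI range of 9.13 through 12.9 to 33.5, that is 5 to 12 and 8 to 33 fragments. The groups overlapped, and 3 of 6 TBI values exceeded every sham value. Means of 7.54 ± 3.17 and 16.4 ± 9.34 (SD, n = 6 each) gave a log2 fold change of 0.96 (SE 0.35, limma adjusted p = 0.0434). Without rat 45 it was 0.73 and no longer passed (limma adjusted p = 0.0955). As in the cortex, Msr1 passed the filter on low values through its TBI libraries.

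Cd163 covered 49.8 through 72.3 to 83.9 in sham thalamus and 35.7 through 59.0 to 271 in TBI thalamus. The TBI median was below the sham median while the TBI mean, 96.5 ± 88.7 against 70.5 ± 11.7 (SD, n = 6 each), was above the sham mean. The log2 fold change of 0.11 (SE 0.37, limma adjusted p = 0.854) turned to -0.26 (adjusted p = 0.413) without rat 45.

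Lyve1 had 31.5, 49.7 and 84.9 as lowest, median and highest sham thalamus values and 46.5, 60.6 and 155 as the TBI values, with 1 TBI value, that of rat 45, above the sham range. Pf4 had 28.0, 39.1 and 58.8 in sham and 44.1, 54.8 and 127 in TBI thalamus, again with the one value of rat 45 above the sham range. The log2 fold changes were 0.37 for Lyve1 (SE 0.30, limma adjusted p = 0.359) and 0.56 for Pf4 (SE 0.25, limma adjusted p = 0.0974), and 0.13 and 0.34 without rat 45. Both groups overlapped for both genes.

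F13a1 was abundant in the thalamus and did not differ beyond its spread after TBI. Sham values were 575 through 799 to 878 and TBI values 567 through 725 to 1085. Its log2 fold change was -0.031 (SE 0.15, limma adjusted p = 0.892), with a 95% confidence interval from -0.34 to 0.28, and the sign depended on the scaling: with TMM scaling it was 0.019. Without rat 45 it was -0.14.

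**Figure D2:**
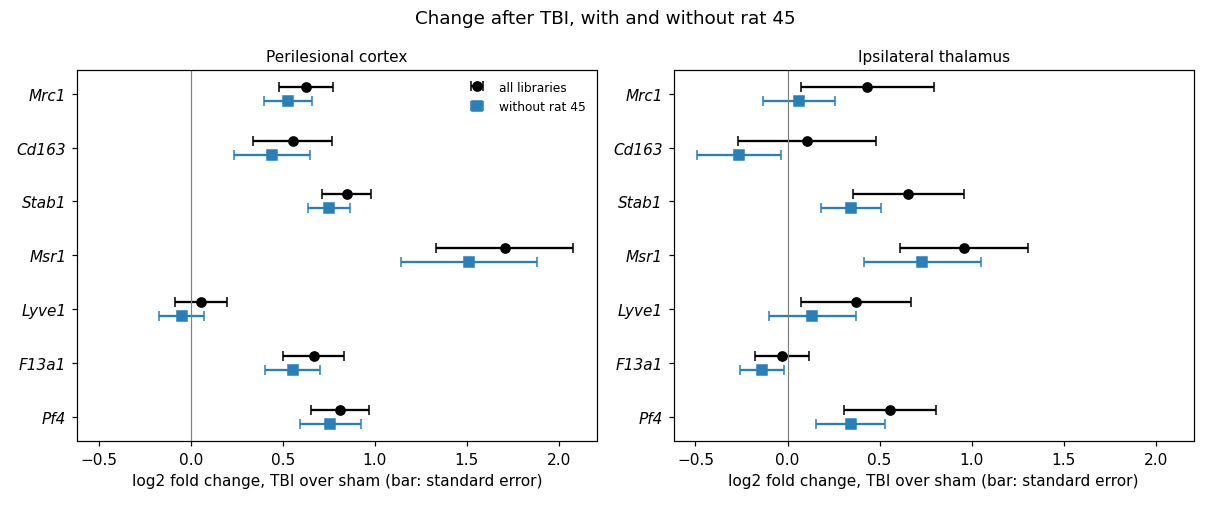
Log2 fold change of TBI over sham for each gene in perilesional cortex (left) and ipsilateral thalamus (right), with bars of 1 standard error, from all libraries (black circles) and without rat 45 (blue squares). In the cortex the 2 estimates stayed close, from 0.85 to 0.75 for Stab1, whereas in the thalamus that of Mrc1 went from 0.43 to 0.064 and that of Cd163 from 0.11 to -0.26.

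An interaction term fitted to the 24 libraries, as reported without a term for the rat, asked whether the change after TBI differed between the regions. None of the 7 was called by limma, where 2.72% of loci were called with a larger and 4.54% with a smaller change in the thalamus. At an unadjusted p under 0.05 there was 1, F13a1, with log2 fold changes of 0.67 in the cortex and -0.03 in the thalamus (difference of the log2 changes -0.70, SE 0.23, limma adjusted p = 0.0679). With the rat as a replicate block, which pairs the regions of each rat, the F13a1 difference was called (limma adjusted p = 0.0345), as it was by DESeq2 (adjusted p = 0.0394) and without rat 45 (-0.69, limma adjusted p = 0.0396), while edgeR did not call it (adjusted p = 0.0857). In all, the F13a1 difference was called in 6 of 36 settings. The passing of 5 genes in the cortex and 1 in the thalamus is therefore not itself shown to be a difference between the regions for the other 6. Their differences were -0.75 for Msr1, -0.45 for Cd163, -0.25 for Pf4, -0.19 for Mrc1, -0.19 for Stab1 and 0.31 for Lyve1, each with a 95% interval that included 0. Without rat 45 the difference for Cd163 was -0.70, with an interval below 0, but it was not called (limma adjusted p = 0.213).

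The regions themselves differed in sham-operated rats. Each rat gave both regions, but the fits between regions as reported had no term for the rat. F13a1 was 5.90-fold higher in sham thalamus, at 768 ± 110.5 normalized counts against 130.2 ± 25.4 in sham cortex (SD, n = 6 each), a log2 difference of 2.56 (SE 0.13, limma adjusted p = 1.24e-10) with no overlap and with thalamus above cortex in 6 of 6 rats. Lyve1 went the other way, at 55.3 ± 21.6 against 117 ± 17.5, a log2 difference of -1.15 (SE 0.22, limma adjusted p = 0.000258), with every sham thalamus below every sham cortex. Mrc1 was lower in thalamus by a log2 difference of -0.71 (SE 0.14, limma adjusted p = 0.000496), with 5 of 6 thalami below all cortices, and Stab1 by -0.45 (SE 0.16, limma adjusted p = 0.0236), with 4 of 6. So 1 of the 6 members tested was higher and 3 were lower in the thalamus, where 33.9% of loci were called higher and 28.3% lower. With the rat as a replicate block the member counts were the same. In each direction 1 member was free of overlap, against 23.9% of loci for higher and 19.2% for lower, so these shares lie near those of all loci.

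Cd163 and Pf4 did not differ between the sham regions beyond their spread. For Cd163 the log2 difference was 0.0044, with a 95% confidence interval from -0.38 to 0.39, and for Pf4 it was 0.030, with an interval from -0.35 to 0.41. Msr1, with means of 9.46 in sham cortex and 7.54 in sham thalamus, lay under the minimum mean of 10 and was not tested there.

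In TBI rats the order of the regions was the same for F13a1, Lyve1 and Mrc1. F13a1 was 3.64-fold higher in thalamus, at 762 ± 188 against 209 ± 53.8 (SD, n = 6 each; log2 difference 1.86, SE 0.18, limma adjusted p = 4.34e-07), again with no overlap and in 6 of 6 rats. Lyve1 was lower by a log2 difference of -0.83 (SE 0.25, limma adjusted p = 0.00968), Msr1 by -0.99 (SE 0.38, limma adjusted p = 0.0386) and Mrc1 by -0.90 (SE 0.36, limma adjusted p = 0.0460). The Mrc1 call held in 11 of 24 settings, with the highest adjusted p in DESeq2 (0.223), and the Msr1 call in 14 of 23, and both were lost when most single libraries were left out. These were 1 member higher and 3 lower of 7, where 31% of loci were called higher and 26.5% lower. F13a1 alone was free of overlap, where 19.5% of loci were so higher and 16.5% lower.

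Stab1 in TBI rats had a regional log2 difference of -0.64 (SE 0.29, limma adjusted p = 0.0718), which passed with the replicate block (adjusted p = 0.00941). Cd163 at -0.44 (adjusted p = 0.355) and Pf4 at -0.22 (adjusted p = 0.444) did not pass. Without rat 45 limma called 5 genes lower in the thalamus, now with Stab1 at -0.86 (adjusted p = 1.08e-05) and Cd163 at -0.70 (adjusted p = 0.0326) beside Lyve1, Mrc1 and Msr1, and Pf4 at -0.39 still missed (adjusted p = 0.0640). In that fit 4130 of all 15690 loci were called lower, and of the members F13a1 was called higher.

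**Figure D3:**
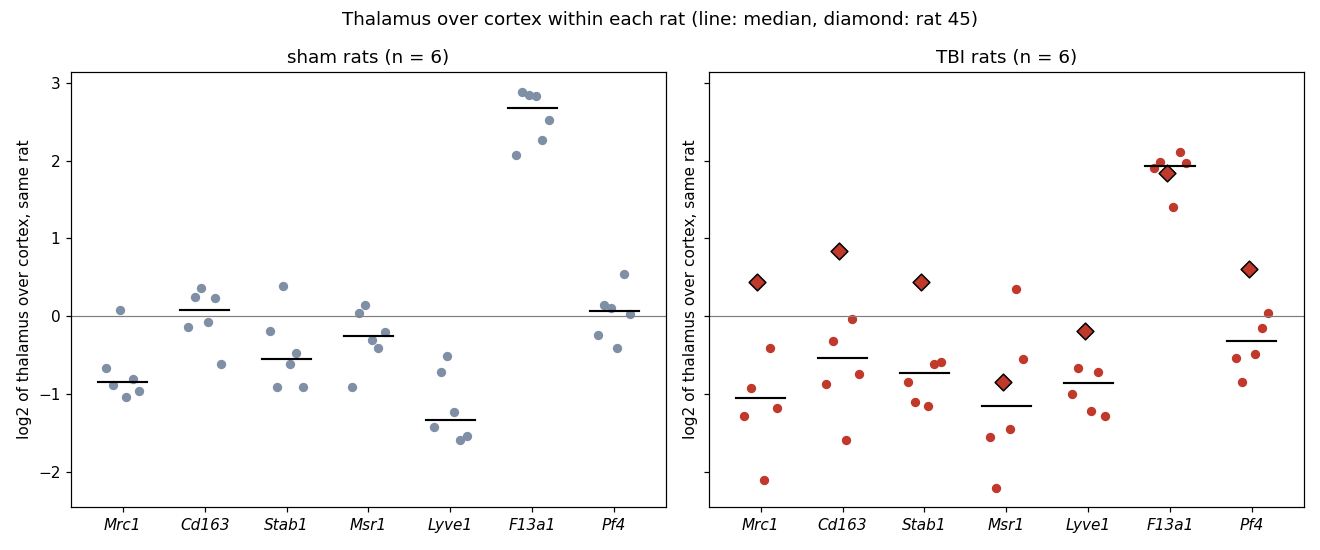
Log2 of the thalamus value over the cortex value of the same rat for each gene, in 6 sham (grey) and 6 TBI rats (red); short lines are medians over rats, the grey line marks equal values and diamonds mark rat 45. F13a1 lay above 0 in all 12 rats and Lyve1 below 0 in all 12, while rat 45 stood above 0 for Mrc1, Cd163, Stab1 and Pf4.

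Within single rats the thalamus to cortex ratio of F13a1 ran from 4.20 through a median of 6.44 to 7.38 in sham rats and from 2.64 through 3.82 to 4.32 in TBI rats. These ranges met only at their ends, the highest TBI ratio lying above the lowest sham ratio. The Lyve1 ratio ran from 0.332 through 0.400 to 0.703 in sham and from 0.411 through 0.555 to 0.880 in TBI rats. For Mrc1 the median ratio was 0.557 in sham and 0.484 in TBI rats, and the single rat above 1 in each group was rat 34 at 1.06 and rat 45 at 1.36. The same 2 rats held the highest ratios for Cd163, Stab1 and Lyve1.

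By group mean, TBI cortex had the highest level of Mrc1, Cd163, Stab1, Msr1 and Pf4, followed by TBI thalamus and then by the sham groups. Without rat 45 the TBI thalamus mean was 236 for Mrc1 and 329 for Stab1, below the sham cortex means of 360.4 and 356, and 61.5 for Cd163, below both sham means of 71.6 and 70.5. For Lyve1 both cortical groups came before both thalamic groups, and for F13a1 both thalamic groups before both cortical groups. Of the neighbours in the orders with all rats, the libraries of TBI thalamus and TBI cortex were separate for F13a1, and every other pair of neighbours overlapped.

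The 7 genes varied together within groups, largely through rat 45. Over the 21 pairs of members, the correlation of deviations from the group mean across 24 libraries had a median r of 0.630, from 0.154 to 0.897. Without the 2 libraries of rat 45 the median r was 0.343, from -0.384 to 0.687. The points share rats, size factors and tissue composition, so these are descriptions.

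The genes most like each member in these deviations were taken as the 3 loci with the highest r over 24 libraries. For Mrc1 they were Tgfbr3, Fkbp9 and Aldh1a2, with r of 0.941, 0.937 and 0.933, and 0.821, 0.782 and 0.777 without rat 45. Aldh1a2 is itself 1 of the 10 fibroblast markers. Stab1 was most like Wisp2, Hcar1 and Sned1, with r of 0.951, 0.939 and 0.933, and 0.838, 0.826 and 0.755 without rat 45. The r of Mrc1 and Stab1 were the highest of the 7 genes with all rats. Without rat 45 the r of the companions of Pf4, 0.805 to 0.823, lay among those of Mrc1 and Stab1.

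Cd163 was most like Clec10a, Dpp7 and Lama1, with r of 0.904, 0.891 and 0.864, and 0.738, 0.718 and 0.619 without rat 45. Pf4 was most like Mmp2, Fam117a and Arsg, with r of 0.906, 0.901 and 0.901, and 0.805, 0.807 and 0.823 without rat 45. For Lyve1 the genes were Layn, Mmp23 and Ccdc3, with r of 0.839, 0.838 and 0.837, and 0.693, 0.657 and 0.690 without rat 45. Of the 9 genes just named, Clec10a is itself a macrophage lectin and Lama1 a basement membrane laminin.

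F13a1 was most like Lamb1, Jak2 and Srpr, with r of 0.826, 0.825 and 0.818, and 0.806, 0.692 and 0.675 without rat 45. Msr1 was most like FOLR2, the folate receptor of resident macrophages, with r of 0.857, and 0.809 without rat 45, and then like Jak2 at 0.738 and Wls at 0.737, which were 0.588 and 0.589 without rat 45. Spearman's rho for the 21 gene pairs so named lay between 0.605 for Msr1 with Jak2 and 0.888 for Msr1 with FOLR2.

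Fibroblast markers moved with some of these genes. In the cortex 9 of 10 fibroblast markers rose after TBI, as did 5 of the 7 genes but not Cd163 or Lyve1 by the test. They were led by Col3a1 (log2 fold change 0.94, limma adjusted p = 0.000284), and their summed count ran from 14443 to 20845 in sham and from 21557 to 55015 in TBI cortex without overlap. In the thalamus 2 of 10 rose, Pi16 and Postn, and the median log2 fold change of 0.56 became 0.013 without rat 45. Between sham regions 9 of 10 were lower in the thalamus, where Mrc1, Lyve1 and Stab1 were lower too, F13a1 was 5.90-fold higher, and Cd163 and Pf4 did not pass the test. None of the 10 fibroblast or 9 choroid plexus markers was at 3 or fewer fragments in every library of a group, and the part of either tissue in the levels of the 7 genes was not tested.

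**Figure D4:**
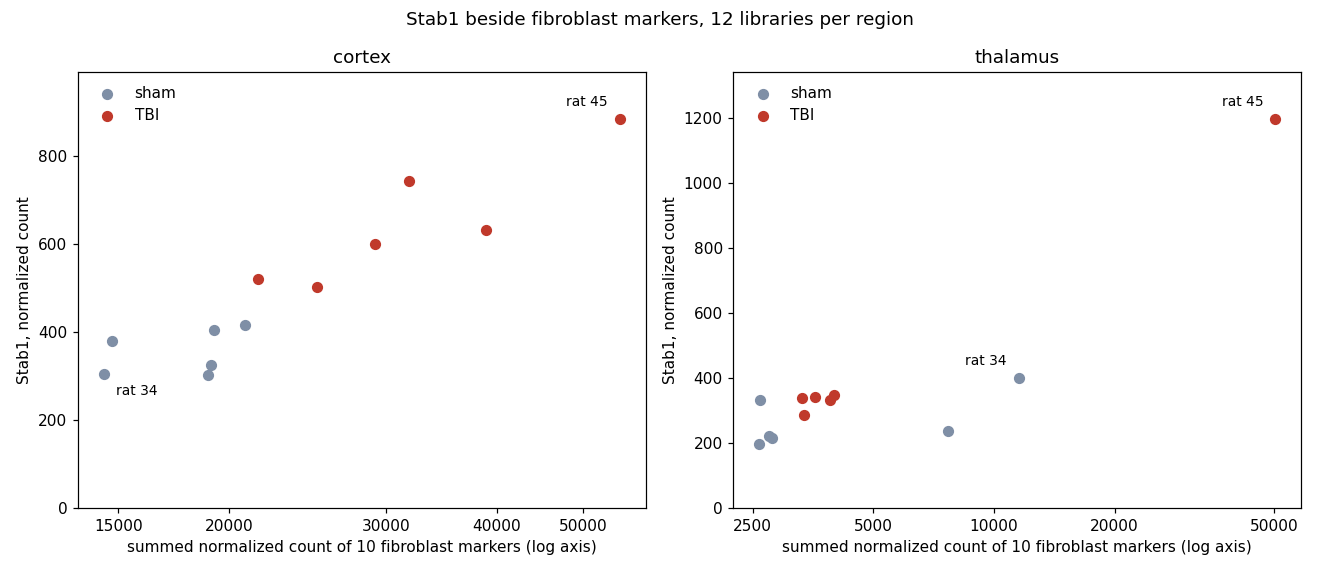
Normalized count of Stab1 (vertical axis, from 0) against the summed normalized count of 10 fibroblast markers (horizontal log axis), 12 libraries each in cortex (left) and thalamus (right), sham grey and TBI red. TBI cortices lay above sham cortices on both axes, and in the thalamus rat 45 stood alone at 50349 and 1198 while the other 5 TBI rats lay between 3317 and 3990.

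Choroid plexus markers had a median log2 fold change of -0.34 in the cortex and 0.11 in the thalamus, and of -0.93 and -0.81 without rat 45. None of the 9 was called in either region with all rats. Without rat 45 none was called either, of 8 tested in the cortex and 9 in the thalamus. Choroid plexus markers were high in single libraries of both groups. The sham thalamus of rat 50, with a choroid plexus sum of 110539, had the lowest Lyve1 value of its group, 31.5. It also had the highest Pf4, 58.8, and the highest Msr1, 12.6. The sham thalamus of rat 34 had the highest Mrc1, Cd163 and Stab1 of its group. The part of choroid plexus in the member values was not tested.

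Platelet markers bear on Pf4 and F13a1. In the cortex 1 of the 4 loci tested rose, Itga2b (log2 fold change 0.87, limma adjusted p = 0.00244), which some other blood-lineage cells also express. Another, Gp1bb, fell, but its locus is joined with the neuronal gene Sept5 and measures both. Gp9 was at 3 or fewer fragments in every cortex library, Gp6 and Tubb1 in every sham library, and Ppbp, the other abundant platelet chemokine gene, in all 24 libraries. In the thalamus the Gp1bb locus alone of the 3 tested was called, again lower. Lymphatic endothelium, which bears on Lyve1, had 1 of 4 markers higher in the injured cortex, Pdpn (log2 fold change 0.58, limma adjusted p = 4.73e-05), a gene that reactive astrocytes also express. Of the 3 lymphatic markers tested in the thalamus, Pdpn was called higher and Prox1 lower. Without rat 45 the call of Prox1 was lost. Neither the part of platelets nor that of lymphatic endothelium in the member values was tested.

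Monocytes also express F13a1. Of the monocyte and neutrophil markers, 4 of 5 tested rose in the cortex, Itgal at 1.09, Fcn1 at 0.83, Csf3r at 0.75 and Plac8 at 0.71 on the log2 scale, and 3 of 6 in the thalamus, Itgal at 1.94, Csf3r at 1.30 and Fcn1 at 0.88, with the same counts of rises without rat 45. Neuronal markers fell, 9 of 12 in the cortex (median -0.30 on the log2 scale) and 11 of 12 in the thalamus (median -0.56). The part of either in the member values was not tested.

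Genes that mark all brain macrophages, microglia included, rose in both regions. Of 12, 11 rose in the cortex (with a median of 0.76 on the log2 scale, Csf1r 0.61 and Tyrobp 1.01) and 12 in the thalamus (median 1.08, Ptprc 1.60 and Csf1r 1.02). Of 9 microglial markers 8 rose in each region, with medians of 0.47 and 0.82, among them Cx3cr1, by 0.53 in the cortex and 0.94 in the thalamus. The interaction was called with a larger change in the thalamus for 5 of 12 and 5 of 9 of these genes. Among all loci 2.72% were so called, and of the 7 perivascular macrophage genes 0, which lies near that share. Without rat 45, 11 of 12 general markers rose in each region, and 6 of 9 microglial markers rose in the cortex and 8 of 9 in the thalamus. Whether these lists differ from one another was not tested.

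Other genes known from perivascular macrophages gave a mixed list. In the cortex 7 of 15 tested rose (median log2 fold change 0.52), led by Tgfbi at 0.78, Lyz2 at 0.78, Dab2 at 0.57 and Colec12 at 0.53. In the thalamus 4 of 12 rose, Lyz2 at 1.72, Ms4a6a at 0.99, Siglec1 at 0.61 and Maf at 0.60, and 1 fell, Slc40a1, the iron exporter, at -0.30 (limma adjusted p = 0.0499). Without rat 45, 6 of 15 rose in the cortex, and 4 of 11 rose and 1 fell in the thalamus. Between sham regions 8 of 14 were lower and 2 higher in the thalamus. Of this list, Cbr2 was at 3 or fewer fragments in all 24 libraries. Timd4 and Vsig4, which also mark other resident tissue macrophages, were so in every sham library and every TBI thalamus. Cd5l was at that level in every TBI thalamus.

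Scavenger receptors outside the 7 changed by very different amounts. Cd68, the lysosomal scavenger receptor of phagocytes, rose by 1.98 on the log2 scale in the cortex and 2.77 in the thalamus, and Olr1, a receptor for oxidised lipoprotein, by 1.43 and 2.93. In all, 6 of 16 tested rose in the cortex, and 8 rose and 1, Megf11, fell in the thalamus, where the smallest called rise was that of Scarb1 at 0.16. Without rat 45, 7 rose in the cortex, and 6 rose and 1 fell in the thalamus. Marco and Cd207 were at 3 or fewer fragments in all 24 libraries.

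Of the ligands, partners and substrates of the 7 products, 5 of 14 tested rose and 1, Has1, a hyaluronan synthase, fell in the cortex, and 4 of 15 rose in the thalamus. Without rat 45, 4 rose and none fell in the cortex, so that the call of Has1 was lost, and 4 rose in the thalamus. Cd44, the other main hyaluronan receptor beside Lyve1, rose from 237 ± 23.5 to 1030 ± 253 normalized counts in the cortex (SD, n = 6 each; log2 fold change 2.08, limma adjusted p = 7.9e-07) and from 292 ± 43.5 to 1024 ± 174 in the thalamus (1.80, limma adjusted p = 2.15e-07). Hmox1, which degrades the haem that Cd163 helps to take up, rose by 1.08 in the cortex and 1.33 in the thalamus, without overlap in either region. Sparc, a ligand of stabilin-1, rose by 0.52 in the cortex. The B subunit of factor XIII, F13b, was at 3 or fewer fragments in all 24 libraries.

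Of the macrophage growth factors and regulators, 12 of 19 tested rose in the cortex, and 12 rose and 1, Pparg, fell in the thalamus, with the same counts without rat 45. Csf1, the growth factor of macrophages, rose by 0.81 and its receptor gene Csf1r by 0.61 in the cortex, with Nr1h3 at 0.69 and Irf8 at 0.88. In the thalamus Irf8 rose by 1.47, Csf1r by 1.02 and Csf2rb by 1.75. The cytokine genes Il4, Il13, Il10 and Csf2 were at 3 or fewer fragments in all 24 libraries.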

How the data were processed

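Messenger RNA of perilesional cortex and ipsilateral thalamus from 6 TBI and 6 sham-operated rats was sequenced by the authors from stranded polyadenylated libraries. According to the labels and methods, reads were aligned with TopHat 2.0.11 and Bowtie2 2.2.2 and transcripts were assembled with Cufflinks 2.2.1 along the Rnor_5.0 Ensembl annotation; as the genome itself the submitters' processing notes name Rnor_5.0 and the methods RGSC3.4. The deposited values are a signal, namely the fragments of each locus in each library after scaling by a library size factor. Low values were whole multiples of 1 step per library (100% within a tolerance of 0.02), from which fragments and depth were recovered; in 1 library the step lay too near 1 for an automatic check. Loci without a name (37.1%, holding 1.90% to 2.23% of a library's values) were left out.

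The 7 genes and all other gene lists were chosen with earlier results of these data known. List genes were matched by name without regard to case, the 7 members exactly. Named genes were all members, the 3 loci most like each, and of each other list at most 4 called genes per region and those at 3 or fewer fragments.

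Groups were taken from the labels, and replicates are separate rats. Intervals are 95% intervals from limma's moderated degrees of freedom. A level at or under 3 fragments counts as a floor, for counting error only. TBI against sham within region, thalamus against cortex within TBI or sham, and their interaction were tested with limma 3.58.1 in R 4.3.3 (eBayes with a mean trend) on log2(value + 1), for named loci with a mean of at least 10, calling adjusted p (Benjamini-Hochberg) under 0.05. Fold changes on this scale understate those of low genes. Cuffdiff was not rerun. The rat number pairs the regions, since both came from the same animal: the cortex and thalamus of a rat deviated together, with correlations across loci of 0.00393 to 0.569 and a median of 0.187, over 0.1 in 10 of 12 rats. Alternatives were TMM and upper quartile scaling, the filter dropped or raised to a mean of 50, a pseudocount of 0.1 or 5, a threshold of 0.01, a 1.5-fold minimum, limma-voom, edgeR 4.0.16 and DESeq2 1.42.0 on recovered fragments, all 24 libraries in 1 fit, the rat as replicate block, leaving out each library and leaving out rat 45. Leaving out rats 45 and 34 was added after the data were seen. Steps were tested on simulated data. Promoter windows came from RefSeq (GRCr8). Python 3.11.15 with pandas 2.3.3 made the tables, and matplotlib 3.10.9 drew the figures.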

Additional observations from a re-analysis of the deposited data

Results flagged for a closer look

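In 6 of the 28 combinations of gene and group, 1 library stood farther from the other 5 than Dixon's critical value for 6 samples allows, and in all 6 it was a library of rat 45. Chance marks about 1 in 20 groups, and the 28 are not independent, since they share rats. In TBI thalamus these were Mrc1 at 1069 normalized counts, against 318 in the next library, Cd163 at 271, against 104, Lyve1 at 155, against 65.4, Stab1 at 1198, against 347, and Pf4 at 127, against 57.8. In TBI cortex it was Lyve1 at 177, against 127 in the next. F13a1 and Msr1 were highest in the thalamus of rat 45 too, at 1085 and 33.5, but within the limit. The same thalamus held the highest fibroblast (50349) and choroid plexus (266903) marker sums of its group, and their part in these values was not tested.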

How the results depend on the processing

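The count of members called in the cortex ran from 4 to 6 over the alternatives, against 5 as reported, and that in sham rats between regions from 3 to 4. In the thalamus, 1 member (Msr1) was called as reported, 0 at a threshold of 0.01, with a mean of at least 50 (which removes Msr1) and without rat 45, 3 with all 24 libraries in 1 fit, and 0 to 1 when single libraries were left out (0 for sham rats 26, 32, 34 or 55 and TBI rats 45, 56 or 63). The interaction had 0 members as reported and 1, F13a1, with DESeq2, without rat 45 and with the replicate block, and 0 to 1 without single libraries (1 without the cortex of TBI rat 56 or the thalamus of sham rat 26 or TBI rat 45). Between regions in TBI rats, 4 were called as reported, 2 at a threshold of 0.01, 5 with the replicate block, and 2 to 7 without single libraries (7 without the thalamus of rat 45, 3 without that of rat 63, 4 without the cortex of rat 56 and 2 otherwise). The call that the replicate block added there was Stab1 (-0.64, limma adjusted p = 0.00941), and with F13a1 it changed no other call. Of 895 values of single members, 803 kept direction and side of the threshold, 38 lost and 20 gained a call, and 34 turned sign, none of which passed the test before or after. Lyve1 in the cortex turned to -0.050 without rat 45 or its cortex, -0.065 without rats 45 and 34 and -9.28e-06 without the cortex of sham rat 50, and ran from -0.050 to 0.12 over single libraries left out. Cd163 in the thalamus turned to -0.26 without rat 45 and -0.21 without rats 45 and 34 (-0.26 to 0.32 without single libraries). F13a1 in the thalamus turned to 0.019 with TMM, 0.0099 with upper quartile scaling, 0.043 with edgeR, 0.021 with DESeq2 and to at most 0.048 without single libraries (range -0.14 to 0.048). Mrc1 in the interaction turned to 0.11 with edgeR and 0.088 with DESeq2, and Stab1 to 0.0032 with edgeR. Between sham regions Cd163 turned to -0.024 with TMM, -0.0058 with upper quartile scaling, -0.052 with edgeR, -0.056 with DESeq2, -0.067 without rats 45 and 34 and ran from -0.076 to 0.13 without single libraries, and Pf4 from -0.078 to 0.13. The cause of these shifts was not tested. Depth limits Msr1, which rests on 5 to 71 fragments per library, and its sham levels most of all.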
